A study of Mus musculus with 8 samples.

Results

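The glucocorticoid receptor and 9 genes known to respond to it were described in hearts of db/db and db/m mice. The 10 genes were chosen by name as known targets, with earlier results of these data known. They are Nr3c1, which encodes the receptor, and Fkbp5, Zbtb16, Klf15, Klf9, Tsc22d3, Sgk1, Mt1, Mt2 and Sult1a1. Each symbol matched 1 of the 55573 genes in the count table. The db/db group had 4 heart libraries and the db/m group had 4, all from male mice aged 24 weeks on the C57BLKS/J strain, with 3 µg of total RNA as input to each library. The db/db mouse is homozygous for a mutation of the leptin receptor gene Lepr and becomes obese and diabetic. The db/m mouse carries 1 copy of that mutation and is the lean control, so both groups carry the db allele. The mutation is present in all tissues, and treatment of either group is not given in the sources used here.

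Glucocorticoids, of which corticosterone is the main one in mice, enter cells and bind the receptor, which is held in the cytoplasm by heat shock proteins and their partners. The bound receptor moves to the nucleus, binds palindromic response elements in DNA and switches many genes on or off. In heart and skeletal muscle its targets include brakes on the receptor, transcription factors that steer fuel use, anti-inflammatory proteins, kinases and metal-binding proteins. Release of the hormone follows the day and night cycle.

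Total counts ranged from 19541757 to 22249911 over the 8 libraries. Within each genotype, no library duplicated another within sampling noise. Pairs across the genotypes were not compared in this way. Whether the 4 libraries of a genotype are 4 animals is not stated in the labels; the tests use the variation among libraries, part of which could be technical. The 10 marker genes of ventricular heart muscle were detected, with summed levels of 34110 to 41000 CPM in db/db and 29890 to 38650 CPM in db/m (CPM, the count relative to the scaled library size). Lepr itself had 6.68, 6.38, 3.73 and 6.24 CPM in db/db replicates 1 to 4, against 5.28, 8.49, 21.01 and 7.98 CPM in db/m replicates 1 to 4. These ranges overlap, and the db mutation alters splicing rather than removing the gene, so the total count does not check the genotype. The db/m libraries were not alike. In db/m replicates 1 and 3 all 8 atrial muscle markers and 9 of 10 adipocyte markers lay above the other 6 libraries. The atrial sum was 2039 and 4651 CPM in these libraries and 43.6 to 163 CPM in the others, and the adipocyte sum was 689 and 1097 CPM against 337 to 644 CPM. The fibroblast sum was 2191 and 2032 CPM against 1092 to 1564 CPM, with 5 of 8 markers above the other 6 libraries, and the ventricular sum was 32760 and 29890 CPM against 34110 to 41000 CPM. In db/m replicate 3, long genes also had more counts than elsewhere, by 0.246 on the log2 CPM scale for each doubling of exon length, against -0.0815 to 1.38e-05 in the other 7. Values without these libraries are given beside the results. The part these differences play in the results was not tested. The sample titles name the tissue only as heart. In RNA from such tissue, fewer cells of a type and less RNA per cell cannot be told apart.

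Sequence upstream of the genes was examined first, because the receptor acts through short DNA motifs. RefSeq windows on GRCm38.p6, the assembly also named mm10, reached 250 bases before each transcript start and were used for 8 of the 10 genes, with 15 starts in all. Nr3c1 and Zbtb16 had no window. Motifs known for the receptor or for metal and clock control were searched on both strands. Position 1 is the base just before the start. The relaxed receptor palindrome GNACANNNTGTNC was present in 0.387% of the 32851 windows searched and in windows of 2 of the 8 genes, Mt1 and Sgk1. The full palindrome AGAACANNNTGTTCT, which lies over the relaxed motif and contains half-sites, was present in 0.00913% of windows, 3 in number. One of these 3 was the window of the fifth Sgk1 start, at positions 189 to 175. The half-site AGAACA, in 16.1% of windows, was found for Tsc22d3, Sult1a1 and Sgk1. The clock-type E-box CACGTG, in 6.02% of windows, was found for Fkbp5, Klf15 and Sgk1. The metal response element was searched as TGCACNC, in 10.4% of windows and upstream of Mt1 and Mt2, and as TGCGCNC, in 12.5% of windows and upstream of Mt2 and Klf15. In Klf15 the TGCGCNC match overlaps an E-box. Over 27025 genes, the share per gene was 0.44% for the relaxed palindrome, 0.0111% for the full palindrome and 18.2% for the half-site. It was 6.86% for the E-box, 11.8% for TGCACNC and 14.0% for TGCGCNC. Sgk1 had 6 windows and Tsc22d3 had 3, so more bases were searched for these genes.

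**Figure D1:**
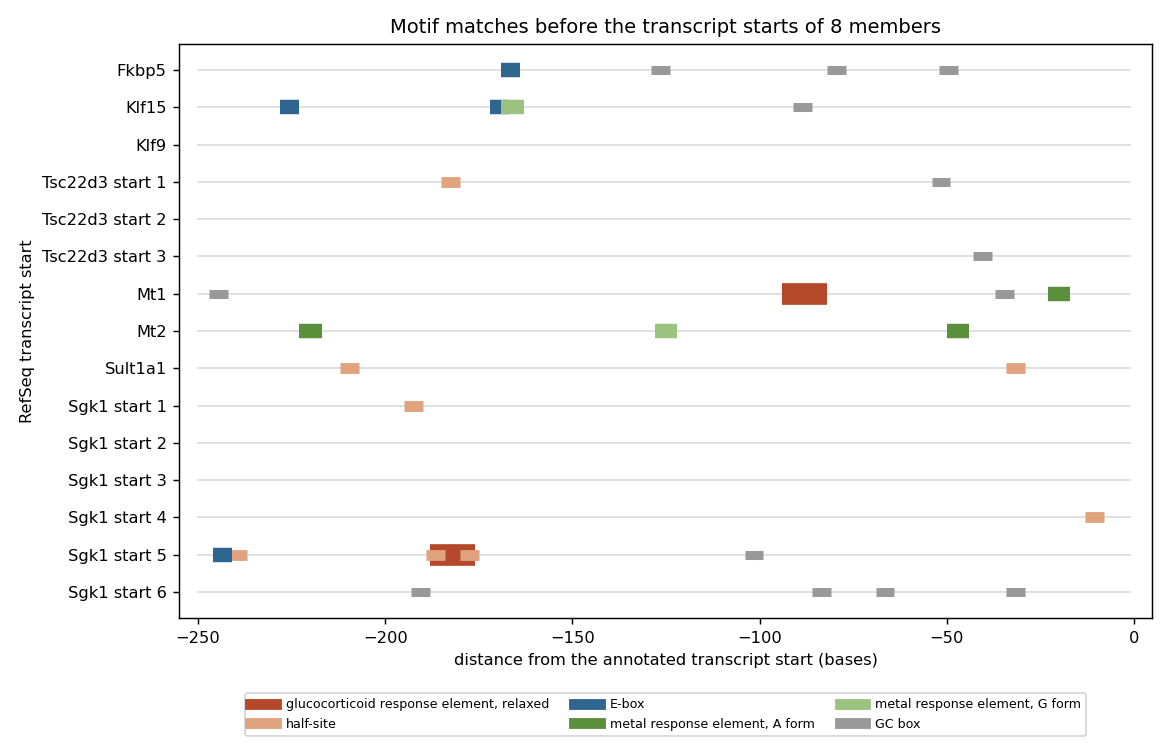
Positions of motif matches in the 250 bases before each of 15 RefSeq transcript starts of 8 genes; the horizontal axis is the distance from the start in bases and each coloured bar is 1 match on either strand, with GC boxes (GGGCGG, in 32.7% of all windows) added. The relaxed receptor palindrome appears upstream of Mt1 and of the fifth Sgk1 start, where it carries the full palindrome, and E-boxes appear upstream of Fkbp5, Klf15 and the fifth Sgk1 start.

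The 5 windows below are shown because they hold the palindromes (Mt1 and Sgk1), or belong to genes whose db/db and db/m levels did not overlap (Fkbp5, Klf15 and Sult1a1). Each is written 5′ to 3′ on the strand of the gene, and annotated exon bases were left out (7 for Mt1 and 14 for Sult1a1). Capitals mark E-boxes in Fkbp5 (chr17:28486150-28486399, minus strand) and Klf15 (chr6:90462326-90462575, plus strand), the palindrome and then the TGCACNC match in Mt1 (chr8:94178839-94179081, plus strand), half-sites in Sult1a1 (chr7:126676433-126676668, minus strand) and the full palindrome upstream of the fifth start of Sgk1 (chr10:21993640-21993889, plus strand).
Mt1: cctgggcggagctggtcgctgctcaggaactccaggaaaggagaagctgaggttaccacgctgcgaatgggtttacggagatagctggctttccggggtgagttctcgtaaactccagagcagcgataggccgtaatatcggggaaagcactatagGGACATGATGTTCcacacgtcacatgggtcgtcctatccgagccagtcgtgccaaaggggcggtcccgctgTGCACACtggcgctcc
Sgk1: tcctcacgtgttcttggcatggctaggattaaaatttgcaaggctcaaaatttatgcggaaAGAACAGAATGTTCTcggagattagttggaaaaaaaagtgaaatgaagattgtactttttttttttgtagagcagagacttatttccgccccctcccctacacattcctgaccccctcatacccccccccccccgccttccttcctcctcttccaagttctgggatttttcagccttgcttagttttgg
Fkbp5: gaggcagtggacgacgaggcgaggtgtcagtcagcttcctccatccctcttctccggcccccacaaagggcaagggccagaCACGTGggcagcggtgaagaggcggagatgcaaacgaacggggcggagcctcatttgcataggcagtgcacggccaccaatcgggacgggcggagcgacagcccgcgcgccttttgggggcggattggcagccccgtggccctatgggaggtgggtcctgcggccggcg
Klf15: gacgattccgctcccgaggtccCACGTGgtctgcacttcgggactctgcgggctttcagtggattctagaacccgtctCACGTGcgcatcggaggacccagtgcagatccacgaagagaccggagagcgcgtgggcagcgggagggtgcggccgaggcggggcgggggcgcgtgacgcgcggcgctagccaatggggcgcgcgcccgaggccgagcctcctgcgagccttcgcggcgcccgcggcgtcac
Sult1a1: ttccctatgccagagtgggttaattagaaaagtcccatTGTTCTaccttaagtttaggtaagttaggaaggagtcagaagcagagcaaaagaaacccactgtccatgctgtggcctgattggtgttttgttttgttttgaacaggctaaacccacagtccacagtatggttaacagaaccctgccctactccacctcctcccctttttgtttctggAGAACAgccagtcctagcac
A match is a run of letters and not a measured binding site, and the receptor is known to act largely through elements far from the start that these windows do not cover.

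The comparison of db/db with db/m hearts asks which cardiac genes differ with the diabetic genotype. Of the 10 genes, 9 passed the filter on low counts and Mt2 did not. With edgeR and Benjamini-Hochberg adjustment over 17411 tested genes, 0 of the 9 passed a threshold of 0.05, where 0.00574% of all tested genes did (1 gene, lower in db/db). At an unadjusted p under 0.05, 4 of the 9 were higher in db/db and 1 was lower, while 5.12% of all tested genes were higher and 7.84% lower. In 4 of the 9, Sult1a1, Fkbp5, Zbtb16 and Klf15, all 4 db/db libraries lay above all 4 db/m libraries, as in 5.04% of all tested genes. The reverse order held for 0 of the 9, and for 4.61% of all tested genes. The log2 fold change, db/db over db/m, was above 0 in 8 of the 9 and in 47.7% of all tested genes. Its median was 0.62 over the 9 genes and -0.02 over all tested genes.

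Other tools called some of these genes. DESeq2 called Sult1a1, Fkbp5, Zbtb16 and Klf15, all higher in db/db, where it called 1.07% of all tested genes higher. Limma-voom with sample quality weights called Sult1a1, Zbtb16 and Klf15, where it called 0.414% of all tested genes higher. It gave db/m replicate 3 a weight of 0.124, against 0.943 to 2.09 for the other libraries. Without db/m replicate 3, edgeR called the same 3 genes as limma-voom, and 0.363% of all tested genes higher. With all 8 libraries but no filter on low counts, edgeR called Sult1a1 and Zbtb16, and 0.0601% of all genes higher. With the trend on gene length removed it called Sult1a1, and 0.0459% of all tested genes higher, and with the replicate number as a block it called 0 of the 9, and 0.0287% of all tested genes in either direction. Without db/m replicates 1 and 3 edgeR called Sult1a1 and Klf15, and 0.15% of all tested genes higher. Sult1a1, Fkbp5, Zbtb16, Klf15, Klf9 and Tsc22d3 then had groups that did not overlap, as did 10.4% of all tested genes in that direction with the 2 remaining db/m libraries.

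**Figure D2:**
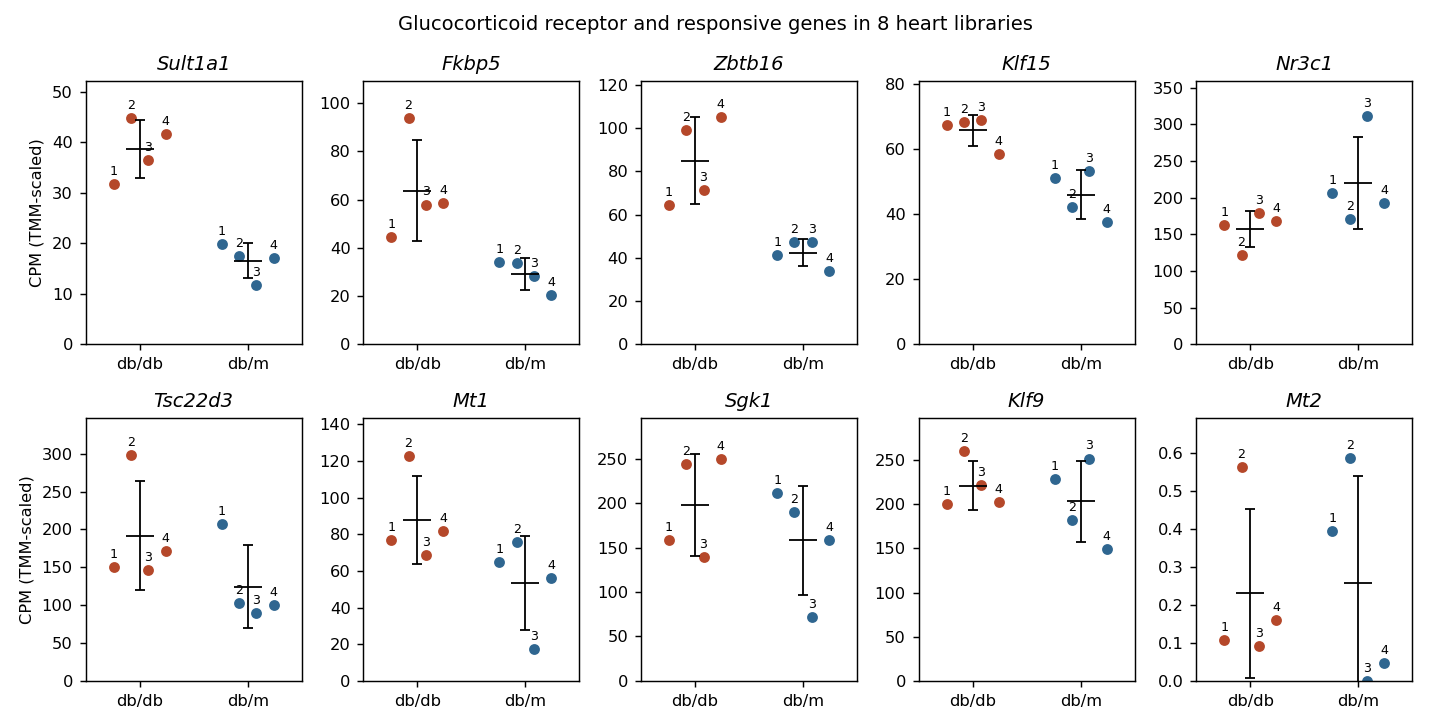
CPM on the scaled library size (vertical axis, linear from 0) of the 10 genes in 4 db/db libraries (left, red) and 4 db/m libraries (right, blue), numbered by replicate, with the mean (long bar) and SD (whiskers). The db/db points lie above the db/m points in Sult1a1, Fkbp5, Zbtb16 and Klf15, and overlap them in the other 6 genes.

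Nr3c1, the receptor gene (ENSMUSG00000024431, chromosome 18, 39410545 to 39519421, mm10), was measured at 162, 122, 178 and 168 CPM in db/db replicates 1 to 4, against 206, 171, 311 and 193 CPM in db/m replicates 1 to 4. The groups overlap, since db/db replicate 3 lay above db/m replicate 2, and db/m replicate 3 stood well above the rest. The mean was 157.5 ± 24.5 CPM in db/db and 220.1 ± 62.4 CPM in db/m (SD, n = 4 each). The log2 fold change was -0.48 (SE 0.20), with an unadjusted p of 0.0386 and an adjusted p of 0.366 by edgeR. Its size depended on 1 library: it was -0.26 without db/m replicate 3, -0.21 without db/m replicates 1 and 3, and -0.33 with the trend on gene length removed.

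Fkbp5 encodes FKBP51, a partner of HSP90 that lowers the hormone affinity of the receptor and is itself induced by it, which closes a short feedback loop. The gene lies on chromosome 17 (ENSMUSG00000024222, 28399094 to 28517527). Its levels were 44.6, 93.8, 58.0 and 58.5 CPM in db/db and 34.0, 33.9, 28.3 and 20.2 CPM in db/m. The lowest db/db library lay above the highest db/m library, and db/db replicate 2 was the highest of all. The mean was 63.7 ± 21.1 CPM in db/db and 29.1 ± 6.49 CPM in db/m (SD, n = 4 each), a 2.19-fold higher level with a log2 fold change of 1.13 (SE 0.24). The unadjusted p was 0.000898, and the adjusted p was 0.149 by edgeR and 0.00268 by DESeq2, the lowest over the 16 alternatives, of which the highest was 0.421. A stretch of 177 bases of Fkbp5 is 97.2% identical to a transcript of Atg2a, so reads there could have been counted for either gene.

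Zbtb16, also called PLZF, encodes a zinc finger repressor that is a sensitive glucocorticoid target in many tissues (ENSMUSG00000066687, chromosome 9, 48654297 to 48836222). It had 64.2, 99.0, 71.2 and 105 CPM in db/db, against 41.5, 47.2, 47.1 and 33.9 CPM in db/m. All 4 db/db libraries lay above the db/m libraries, with db/db replicates 2 and 4 highest. The mean was 84.9 ± 20.2 CPM in db/db and 42.4 ± 6.28 CPM in db/m (SD, n = 4 each). With a log2 fold change of 1.0 (SE 0.19), it had an unadjusted p of 0.00033 and an adjusted p of 0.136 by edgeR. Without db/m replicate 3 the adjusted p by edgeR was 0.0498, just under the threshold, and over the 16 alternatives it ranged between 0.000491 and 0.384.

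Klf15 is a Krüppel-like factor that the receptor induces in muscle and that promotes amino acid and lipid use (ENSMUSG00000030087, chromosome 6, 90462576 to 90475238). Its levels were 67.3, 68.3, 68.9 and 58.6 CPM in db/db, against 51.1, 42.1, 53.2 and 37.5 CPM in db/m. The groups did not overlap, and db/db replicate 4 was the db/db library nearest to db/m. The mean was 65.8 ± 4.83 CPM in db/db and 46.0 ± 7.43 CPM in db/m (SD, n = 4 each), a 1.43-fold higher level. The log2 fold change of 0.52 (SE 0.14) had an unadjusted p of 0.00404 and an adjusted p of 0.243 by edgeR. It was 0.60 with db/m replicate 3 left out (edgeR, adjusted p = 0.0489) and 0.72 with db/m replicates 1 and 3 left out (edgeR, adjusted p = 0.0348), and the adjusted p over the 16 alternatives ranged between 0.0280 and 0.523.

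Klf9, a related Krüppel-like factor induced directly by the receptor and cycling with the day (ENSMUSG00000033863, chromosome 19, 23141226 to 23168134), behaved differently from Klf15 in its values. It had 200, 260, 222 and 202 CPM in db/db, against 229, 182, 252 and 149 CPM in db/m. Most of the db/db range lay within the db/m range. The means were 221 ± 28.0 CPM in db/db and 203 ± 45.9 CPM in db/m (SD, n = 4 each), and the log2 fold change was 0.12 (SE 0.18; edgeR, adjusted p = 0.751). Without db/m replicates 1 and 3 it was 0.41, with an unadjusted p of 0.0104 and an adjusted p of 0.270 by edgeR. The difference between the fold changes of Klf15 and Klf9 was not tested.

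Tsc22d3 encodes GILZ, a leucine zipper protein that carries part of the anti-inflammatory action of glucocorticoids (ENSMUSG00000031431, chromosome X, 140539528 to 140600659). It had 151, 299, 147 and 171 CPM in db/db, against 207, 103, 89.1 and 100 CPM in db/m. One library in each group stood apart from its fellows, db/db replicate 2 and db/m replicate 1, and the groups overlap because of the second. The mean was 192 ± 72.1 CPM in db/db and 124.6 ± 55.2 CPM in db/m (SD, n = 4 each). The log2 fold change was 0.62 (SE 0.31; edgeR, adjusted p = 0.420). Leaving out db/db replicate 2 gave 0.33 (edgeR, adjusted p = 0.713). Leaving out db/m replicate 1 gave 0.99, with an unadjusted p of 0.00450 and an adjusted p of 0.438 by edgeR. A processed pseudogene, Gm8812, is 96.6% identical to Tsc22d3 over 175 bases and held 3207 counts, against 26624 for Tsc22d3. How reads in the similar stretch were assigned was not tested.

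Sgk1 encodes a kinase that regulates ion channels and transporters and responds to glucocorticoids, mineralocorticoids and cell stress (ENSMUSG00000019970, chromosome 10, 21882184 to 21999903). It had 159, 244, 139 and 249.7 CPM in db/db, against 212, 189.8, 71.9 and 159 CPM in db/m. The ranges overlap, with db/m replicate 3 lowest and 2 db/db libraries highest. The mean was 198 ± 57.1 CPM in db/db and 158 ± 61.4 CPM in db/m (SD, n = 4 each). The log2 fold change was 0.33 (SE 0.32; edgeR, adjusted p = 0.635), and it was 0.09 without db/m replicate 3.

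Mt1 encodes a metallothionein, a small protein that binds zinc and copper and is induced by metals as well as by glucocorticoids (ENSMUSG00000031765, chromosome 8, 94179082 to 94180327). It had 77.1, 123, 68.9 and 81.7 CPM in db/db, against 65.1, 76.0, 17.2 and 56.3 CPM in db/m. Above every db/m library lay 3 db/db libraries, and db/m replicate 3 was far below the rest. The mean was 87.7 ± 24.1 CPM in db/db and 53.6 ± 25.6 CPM in db/m (SD, n = 4 each). The log2 fold change was 0.71 (SE 0.38; edgeR, adjusted p = 0.437). It was 0.42 without db/m replicate 3, and 0.64 with the trend on gene length removed.

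Mt2, the neighbouring metallothionein gene (ENSMUSG00000031762, chromosome 8, 94172664 to 94173568), was close to undetected. It had 2, 12, 2 and 3 counts in db/db replicates 1 to 4, against 9, 12, 0 and 1 counts in db/m replicates 1 to 4. It was below the filter, and no fold change is given. An antisense gene, Gm45774, covers 432 of its 588 exon bases, and held 28 counts over the 8 libraries, against 41 for Mt2. Whether reads were counted by strand is not given in the sources used here, and how reads in the shared stretch were assigned was not tested.

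Sult1a1 encodes a phenol sulfotransferase, which adds sulfate to hormones, drugs and catechols, and is induced by glucocorticoids in rat liver (ENSMUSG00000030711, chromosome 7, 126672865 to 126676432). It had the smallest p of the 9 tested genes. Its levels were 31.8, 44.9, 36.5 and 41.5 CPM in db/db, against 19.9, 17.5, 11.7 and 17.0 CPM in db/m. The groups were separated by more than the range within db/m. The mean was 38.7 ± 5.74 CPM in db/db and 16.5 ± 3.45 CPM in db/m (SD, n = 4 each), a 2.34-fold higher level with a log2 fold change of 1.23 (SE 0.18). The unadjusted p was 5.2e-05 and the adjusted p 0.102 by edgeR. Over the 16 alternatives the log2 fold change stayed between 1.10 and 1.33, and the adjusted p between 1.38e-06 and 0.353. With db/m replicate 3 left out it was 1.10 (edgeR, adjusted p = 0.00862), and with db/m replicates 1 and 3 left out 1.16 (edgeR, adjusted p = 0.0143). Sgf29, on the opposite strand, shares 61 bases or 4.0% of the exons, and the pseudogene Gm6939, with 406 counts against 4566 for Sult1a1, is identical to it over 127 bases.

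**Figure D3:**
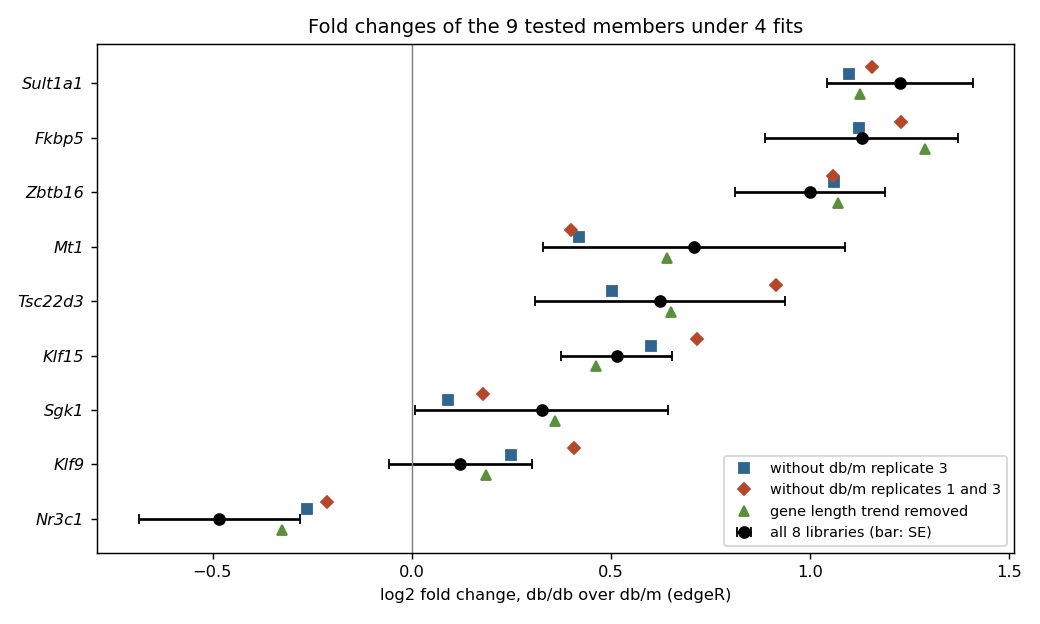
Log2 fold change, db/db over db/m, of the 9 tested genes with all 8 libraries (black circles, bars are SE), without db/m replicate 3 (blue squares), without db/m replicates 1 and 3 (red diamonds) and with the gene length trend removed (green triangles), all by edgeR. Sult1a1, Fkbp5 and Zbtb16 stay near 1 or above in all 4 fits, while Nr3c1 stays below 0 and moves toward it without the db/m libraries.

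The libraries also differed within a genotype. Db/db replicate 2 was the highest of the 8 in 5 of the 9 tested genes (Sult1a1, Fkbp5, Tsc22d3, Mt1 and Klf9) and among the highest 2 in 8. In the ninth, Nr3c1, it was the lowest. Db/db replicate 1 was the highest in 0 and among the highest 2 in 0. Of the db/m libraries, replicate 3 was the lowest in 4 genes (Sult1a1, Tsc22d3, Mt1 and Sgk1) and replicate 4 in 4 others (Fkbp5, Zbtb16, Klf15 and Klf9). Within db/db, replicate 2 also had the highest sums of atrial markers, at 163 CPM, and of adipocyte markers, at 644 CPM, and its ventricular sum of 34110 CPM was the lowest. The part this played was not tested.

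Levels were put in order on CPM per kilobase of exon, which allows for gene length. In db/db the order of means was Mt1 at 70.4, Klf9 at 45.9, Tsc22d3 at 44.2, Sgk1 at 40.4, Sult1a1 at 25.7, Klf15 at 23.6, Nr3c1 at 20.5, Zbtb16 at 16.1, Fkbp5 at 6.73 and Mt2 at 0.392 CPM per kilobase. In db/m it was Mt1 at 43.1, Klf9 at 42.2, Sgk1 at 32.2, Tsc22d3 at 28.7, Nr3c1 at 28.6, Klf15 at 16.5, Sult1a1 at 10.97, Zbtb16 at 8.03, Fkbp5 at 3.07 and Mt2 at 0.439 CPM per kilobase. Between neighbours in the db/db order, library ranges were apart only at Mt1 and Klf9, Zbtb16 and Fkbp5, and Fkbp5 and Mt2. In db/m they were apart only at Nr3c1 and Klf15, Klf15 and Sult1a1, Zbtb16 and Fkbp5, and Fkbp5 and Mt2. The receptor thus stood in place 7 of 10 in db/db and place 5 of 10 in db/m. The untested Mt2 was lowest in both, on few counts and over an exon length that includes the stretch shared with Gm45774. Mt1 had the highest mean in both, above the range of Klf9 in db/db but overlapping it in db/m. The exon length used for Mt1, 1246 bases, covers the gene from end to end. A shorter length would raise its CPM per kilobase, so its overlap with Klf9 in db/m depends on the length used.

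The proteins that hold and regulate the receptor were compared next, from textbook lists. Of 15 chaperone and cochaperone genes, 0 passed edgeR with adjustment, 10 had a log2 fold change below 0 and 2 of these an unadjusted p under 0.05; the median was -0.22. Leaving out 1 library moved this count of 2. It became 7 when db/db replicate 2 was left out, 5 when db/m replicate 3 was, and 0 when either of db/db replicates 3 and 4, or db/m replicate 2, was. Among all tested genes, 7.84% were lower at that p with all libraries. The numbers were 908 of 17786 without db/db replicate 2 and 1120 of 17652 without db/m replicate 3. In the absence of db/m replicates 1 and 3, 14 of the 15 were below 0. Of them 3 had an unadjusted p under 0.05, where 5.04% of all tested genes were lower. Hsp90aa1, the stress-inducible HSP90, averaged 46.7 ± 13.7 CPM in db/db and 73.5 ± 17.4 CPM in db/m (SD, n = 4 each; log2 fold change -0.65, SE 0.23; edgeR, adjusted p = 0.319). Stip1, which hands clients between HSP70 and HSP90, averaged 45.5 ± 3.98 CPM in db/db and 61.1 ± 14.1 CPM in db/m (log2 fold change -0.43, SE 0.17; edgeR, adjusted p = 0.352). The constitutive and more abundant Hsp90ab1 averaged 725 CPM in db/db and 694 CPM in db/m, and Fkbp4, the cochaperone that competes with FKBP51, averaged 258 CPM in db/db and 287 CPM in db/m. Hsp90ab1 had a log2 fold change of 0.06, and Fkbp4 one of -0.16. That of Fkbp4 rested on db/m replicate 3, its lowest library at 147.4 CPM. Without it the value was -0.37 (edgeR, unadjusted p = 0.00565), and without db/m replicates 1 and 3 it was -0.48 (edgeR, unadjusted p = 0.000467). All db/db libraries lay below the remaining db/m libraries in both fits. Such an order held for 1106 of 17652 tested genes in the first fit and 1967 of 17971 in the second. Hsp90aa1 was at -0.72, Stip1 at -0.59 and Hsp90ab1 at -0.02 on the same scale with both libraries left out.

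Of 14 coregulators of the receptor, 0 passed, 12 had a log2 fold change below 0, and the median was -0.20. This lean rested on db/m replicate 3, without which 7 were above 0 and 7 below, with a median of -0.01. With db/m replicate 1 left out as well, 5 were above 0 and 9 below, with a median of -0.04. Hdac3, a deacetylase of corepressor complexes, went the other way. It had 35.5, 33.8, 33.4 and 28.8 CPM in db/db, against 27.1, 22.7, 15.7 and 27.6 CPM in db/m, which do not overlap (log2 fold change 0.50, SE 0.18; edgeR, adjusted p = 0.327). Med14, a Mediator subunit that nuclear receptors contact, averaged 33.2 ± 1.73 CPM in db/db and 41.3 ± 7.39 CPM in db/m (log2 fold change -0.31, SE 0.14; edgeR, adjusted p = 0.383). Without db/m replicates 1 and 3 its log2 fold change was -0.16 and that of Hdac3 was 0.38.

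Local supply of the hormone and its second receptor gave 0 calls in 6 tested genes of 7, with 6 log2 fold changes below 0 (5 with RLE size factors) and a median of -0.24. The median was -0.11 without db/m replicate 3 and also without db/m replicate 4, each time with 1 of the 6 above 0, and -0.19 without db/m replicates 1 and 3. Hsd11b1, which regenerates active corticosterone, had 21.1, 24.5, 17.6 and 25.2 CPM in db/db and 19.9, 26.9, 10.4 and 31.4 CPM in db/m. The means were 22.1 CPM in db/db and 22.2 CPM in db/m, and the db/db range lay within the db/m range. This closeness rested on db/m replicates 1 and 3, the lowest db/m libraries. On the log2 scale the fold change was 0.00 with all libraries and -0.24 without db/m replicate 3. It was -0.41 without both (edgeR, unadjusted p = 0.0232). All db/db libraries then lay below the remaining db/m libraries, as in 1967 of 17971 tested genes. Hsd11b2, which inactivates it, averaged 0.312 CPM in db/db and 0.257 CPM in db/m and was not tested. Nr3c2, the mineralocorticoid receptor and closest relative of Nr3c1, averaged 30.4 ± 6.27 CPM in db/db and 39.3 ± 9.30 CPM in db/m (log2 fold change -0.37, SE 0.20; edgeR, adjusted p = 0.435). As for Nr3c1, db/m replicate 3 was its highest library, at 53.2 CPM. For Nr3c2 the log2 fold change was -0.19 without it and -0.23 without db/m replicates 1 and 3.

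A second list of 31 other genes that respond to glucocorticoids was counted in the same way. With edgeR 0 passed, 22 had a log2 fold change above 0 and 9 below, 8 were higher and 3 lower at an unadjusted p under 0.05, and the median was 0.29. At that unadjusted p, 5.12% of all tested genes were higher and 7.84% lower. The groups did not overlap in 5 higher and 2 lower genes, against 5.04% and 4.61% of all tested genes. Glul, glutamine synthetase, had 442, 542, 400.2 and 400.4 CPM in db/db, against 273, 267, 287 and 283 CPM in db/m. All 4 db/db libraries were above all 4 db/m libraries, which lay close together (log2 fold change 0.69, SE 0.14; edgeR, adjusted p = 0.136). Trim63, the ubiquitin ligase MuRF1 of muscle protein breakdown, had 187, 164, 185 and 174 CPM in db/db and 111, 121, 86.2 and 137 CPM in db/m (log2 fold change 0.64, SE 0.15; edgeR, adjusted p = 0.193). Its groups did not overlap either. Lcn2, a secreted iron-siderophore carrier of the acute phase, averaged 8.42 ± 1.65 CPM in db/db and 2.98 ± 0.833 CPM in db/m (log2 fold change 1.503, SE 0.26; edgeR, adjusted p = 0.114). Sesn1, a sestrin that restrains mTORC1, averaged 153.7 ± 18.5 CPM in db/db and 103 ± 15.2 CPM in db/m (log2 fold change 0.58, SE 0.15; edgeR, adjusted p = 0.221). Pdk4, the kinase that turns off pyruvate dehydrogenase, varied widely. It had 1224, 3492, 245.6 and 2500.0 CPM in db/db, against 356, 1047, 395 and 740.4 CPM in db/m, so db/db held both its lowest and its highest library (log2 fold change 1.56, SE 0.66; edgeR, adjusted p = 0.366). Without db/m replicate 3, edgeR called 3 genes of the list, Glul, Trim63 and Lcn2. Without db/m replicates 1 and 3 it called 1 gene, and the log2 fold change was 0.69 for Glul, 0.46 for Trim63, 1.28 for Lcn2, 0.45 for Sesn1 and 1.06 for Pdk4. The list then had 13 higher and 3 lower genes at an unadjusted p under 0.05, where 5.63% of all tested genes were higher and 5.04% lower, and a median of 0.45. Its median was 0.20 when db/db replicate 2 was left out and 0.57 when db/m replicate 1 was.

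Genes tied to single members were less uniform. Of 6 tested metal response genes 0 passed, and Mtf1, the zinc sensor that drives metallothionein genes, had lower values in db/db, at 26.7, 25.7, 25.8 and 28.2 CPM, against 33.3, 33.6, 45.5 and 35.9 CPM in db/m. These do not overlap (log2 fold change -0.48, SE 0.13; edgeR, adjusted p = 0.249), while the means of Mt1 stood in the opposite order. The value for Mtf1 was -0.39 without db/m replicates 1 and 3. The median of this list was -0.16 with all libraries and -0.03 without db/m replicate 3. Mt3 averaged 0.191 CPM in db/db and 0.304 CPM in db/m. Of 5 targets of Klf15, 0 passed and 0 had an unadjusted p under 0.05, with 3 log2 fold changes above 0 and a median of 0.01. The direction depended on the libraries. Without db/m replicate 3, 4 of the 5 were below 0 and the median was -0.21. Leaving out db/m replicate 1 too, 4 were below 0 with a median of -0.35. Of the 5, 2 were lower at an unadjusted p under 0.05, where 5.04% of all tested genes were. In 3, all db/db libraries lay below the remaining db/m libraries, as in 1967 of 17971 tested genes. Omitting a single other library also put the median below 0, at -0.11 for db/db replicate 1, -0.03 for db/db replicate 4 and -0.01 for db/m replicate 1. Bcat2, the mitochondrial branched-chain aminotransferase, averaged 73.2 ± 7.05 CPM in db/db and 55.0 ± 19.2 CPM in db/m (log2 fold change 0.41, SE 0.25; edgeR, adjusted p = 0.475). Bcat2 was at 0.10 on that scale without db/m replicates 1 and 3. Kcnip2, a potassium channel subunit, was at 0.01 with all libraries and -0.35 without those 2. Of 18 tested paralogues of the 10 genes, 0 passed and the median was -0.15, or -0.10 without db/m replicate 3 and -0.05 without db/m replicates 1 and 3. Tsc22d1, the relative of Tsc22d3 with the highest level, averaged 518 ± 53.3 CPM in db/db and 415 ± 47.2 CPM in db/m (log2 fold change 0.32, SE 0.14; edgeR, adjusted p = 0.381). Its groups did not overlap, and the value was 0.24 without db/m replicates 1 and 3.

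**Figure D4:**
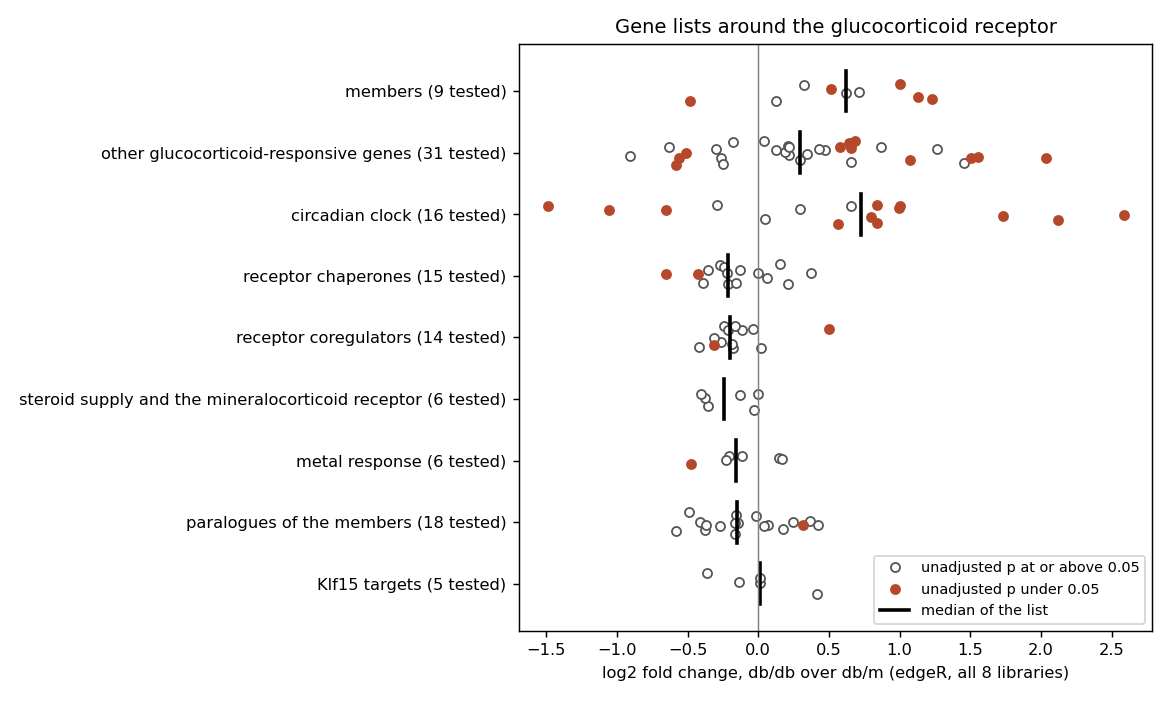
Log2 fold change, db/db over db/m, by edgeR with all 8 libraries for the tested genes among the 10 (members) and for 8 lists around the receptor; each point is 1 gene, filled where its unadjusted p is under 0.05, and the bar is the median of the list. Medians are 0.62 for the members, 0.29 for other glucocorticoid-responsive genes and 0.73 for the circadian clock, and between -0.24 and 0.01 for the other 6 lists.

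Clock genes were included because hormone release and several of the 10 genes follow the time of day. Of 16 clock genes 0 passed edgeR with adjustment. At an unadjusted p under 0.05, 9 were higher and 3 lower in db/db, where 5.12% of all tested genes were higher and 7.84% lower. The log2 fold change was above 0 in 12 and below 0 in 4, so its median of 0.73 joins genes that went both ways. Dbp, Per2 and Ciart, given here with values, are among those higher in db/db. Dbp, a clock output factor, had 55.0, 59.7, 140.2 and 90.02 CPM in db/db, against 11.5, 6.87, 22.5 and 16.5 CPM in db/m. The groups were far apart (log2 fold change 2.59, SE 0.40; edgeR, adjusted p = 0.102). Per2, a repressor of the clock and itself a glucocorticoid target, averaged 32.2 ± 13.0 CPM in db/db and 9.69 ± 2.33 CPM in db/m (log2 fold change 1.73, SE 0.31; edgeR, adjusted p = 0.125). Ciart averaged 5.001 ± 2.71 CPM in db/db and 1.15 ± 0.531 CPM in db/m (log2 fold change 2.12, SE 0.49; edgeR, adjusted p = 0.186). Dbp, Per2, Ciart, Bhlhe41, Tef and Nr1d2 were each highest in db/db replicate 3. Among the 9 tested genes of the receptor set, Klf15 alone was highest there, and 5 were highest in db/db replicate 2. Without db/m replicate 3, edgeR called 1 clock gene, Nr1d2. With db/m replicate 1 also left out it called 0, and the log2 fold change was 2.87 for Dbp, 2.05 for Per2 and 2.51 for Ciart. The clock list then had 11 higher and 4 lower genes at an unadjusted p under 0.05, against the same 5.63% and 5.04% of all tested genes, and a median of 0.86. The hour at which hearts were taken is not given in the sources used here, and the part of the clock difference in the results above was not tested.

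**Figure D5:**
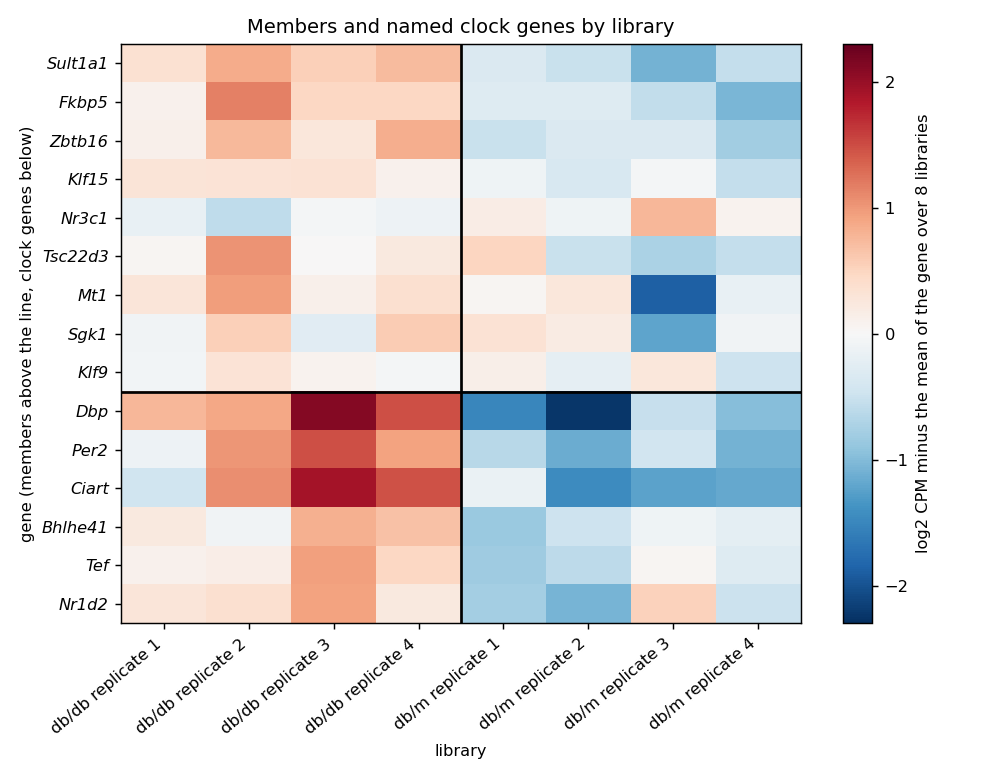
Log2 CPM of 9 receptor-set genes (above the line) and 6 named clock genes (below it) in 4 db/db and 4 db/m libraries, each gene centred on its mean over the 8 libraries (colour, red above the mean and blue below). Db/db replicate 2 is reddest for Fkbp5 and Tsc22d3, db/db replicate 3 for the clock genes, and the bluest cell above the line is Mt1 in db/m replicate 3.

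For each of the 10 genes that was tested, the genes of most similar pattern were sought among 14478 genes, by Pearson correlation of log2 CPM over the 8 libraries. These values describe 8 points that share genotype, depth and, for db/m replicates 1 and 3, the atrial, adipocyte and fibroblast markers. The nearest pattern to Nr3c1 was that of Hcn4, a pacemaker channel of the conduction system and atria, with r of 0.994. The nearest to Zbtb16 was Agt, angiotensinogen, with r of 0.986 and a log2 fold change of its own of 1.15 (SE 0.25). Sema6b came first for Fkbp5, with r of 0.979, and was among the 3 nearest to Zbtb16, with r of 0.960. Proser2 came first for Sult1a1, with r of 0.984, and E4f1 for Klf15, with r of 0.955. For Mt1 the first was Eef1b2, with r of 0.995, and for Tsc22d3 it was Prx, with r of 0.945.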

How the data were processed

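RNA sequencing counts of 8 mouse heart libraries were used, 4 db/db and 4 db/m, grouped by the genotype in the labels. Libraries were made with the NEBNext Ultra kit from 3 µg of RNA each, per the labels' protocols. The deposited values are raw counts per Ensembl gene, with the authors' exon length per gene, another value, beside them. The build is mm10, per the submitters' processing notes. Neither aligner, counter nor strandedness is given in the sources used here. Symbols came from GENCODE M21, which held 55480 of 55573 identifiers.

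The test was that of edgeR 4.0.16, run in R 4.3.3 (filterByExpr with a minimum count of 10, TMM scaling, two-sided robust quasi-likelihood F test, genotype as single factor), adjusted by Benjamini-Hochberg over 17411 genes, with a threshold of 0.05. CPM values use TMM-scaled library sizes. Alternatives were DESeq2 1.42.0, limma-voom (limma 3.58.1) with sample quality weights, RLE factors, no filter, 1 CPM in 4 libraries, a replicate block and leaving out each library. Fits without db/m replicates 1 and 3 and with each library's trend on gene length removed were added after seeing the data. Windows before transcript starts on chromosome 18 were not used. Copies were sought with BLAST at 95% identity over 100 bases.

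The 10 genes and all lists were chosen with earlier results of these data known. All 10 are named. Of each list, up to 4 genes with the smallest unadjusted p and the 2 with the highest mean CPM may be named, as may receptors, steroid enzymes and paralogues. For each of the 10, up to 3 genes of most similar pattern with a mean of at least 2 CPM may be named.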

Additional observations from a re-analysis of the deposited data

Results flagged for a closer look

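Single libraries were checked with Dixon's criterion in 104 groups of 4 values, 1 per library, over 52 genes named above or eligible for naming. Of these values, 12 stood apart. Chance alone marks about 1 group in 20, but the genes share the same libraries, so the groups are not independent.

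Among the 10 genes, Tsc22d3 had an outlying library in both groups, 298.9 CPM in db/db replicate 2 (others 146.8 to 171.4) and 206.9 CPM in db/m replicate 1 (others 89.05 to 102.6). Klf15 in db/db replicate 4 had 58.59 CPM (others 67.3 to 68.91), which lies toward db/m. Mt2 in db/db replicate 2 had 0.5631 CPM (others 0.09212 to 0.1601), which rests on 12 counts.

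In db/m replicate 3, Nr3c2 had 53.23 CPM (others 33.5 to 35.53), the NADPH-supplying enzyme gene H6pd 176.5 CPM (others 83.36 to 89.35), the corepressor gene Ncor1 212.9 CPM (others 129.5 to 132.9) and Klf13 253.7 CPM (others 114.5 to 122.7). In db/db replicate 2, Ptges3, which encodes the HSP90 cochaperone p23, had 83.34 CPM (others 61.45 to 63.16), and Ncor1 had 102.4 CPM (others 132.9 to 135.9). Fkbp3 had 19.53 CPM in db/db replicate 4 (others 25.95 to 26.22), and Ciart had 1.935 CPM in db/m replicate 1 (others 0.7855 to 0.95). Of the 12, 4 were in db/db replicate 2 and 4 in db/m replicate 3.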

How the results depend on the processing

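All 9 tested genes kept the direction of their fold change under all 16 alternatives; of 144 such values, 129 kept their side of the threshold and 15 newly passed it. The median log2 fold change of the 9 genes was 0.50 to 0.82 when 1 library was left out. Counts of calls moved more. With all 8 libraries edgeR called 1 gene in all, 0 of the 10 genes and 0 list genes. DESeq2 called 377, 4 and 13, limma-voom with sample quality weights 130, 3 and 7, and edgeR without the filter 27, 2 and 1. Without db/m replicates 1 and 3 the counts were 46, 2 and 1, and with the gene length trend removed 14, 1 and 0. Leaving out each library in turn gave 0 to 106 genes in all, 0 to 3 of the 10 and 0 to 4 list genes; the highest counts came without db/m replicate 3. The cause was not tested. Genes at few counts, such as Mt2, cannot be compared here. Whether the overlap with Gm45774 lowers the count of Mt2 was not tested.

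With the replicate number as a block edgeR called 5 genes in all, 0 of the 10 and 1 list gene, Dbp. Same-numbered libraries of the 2 genotypes deviated from their group means with correlations of -0.0882, 0.0561, 0.0268 and 0.0163. These give no sign over all genes that the numbers pair the samples. Pairing that touched few genes was not tested.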
